A study of Mus musculus with 30 samples.

Results

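The Reg family comprises 7 genes of secreted C-type lectin-like proteins: Reg1, Reg2, Reg3a, Reg3b, Reg3d, Reg3g and Reg4. They were taken by gene name from the 46078 genes of the counts table, and all 7 were found. Of these, 5 passed the low-count filter that left 16261 tested genes, and Reg2 and Reg3d did not.

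RNA came from the scraped epithelial layer of the colon, not from tumors, in wild-type C57BL/6J mice aged 5 to 10 weeks at the start. The colitis-associated cancer model was made with a single intraperitoneal dose of 10 mg/kg azoxymethane (AOM, a colon carcinogen), followed by dextran sulfate sodium (DSS, an irritant that damages the epithelium) at 2.5% in drinking water for 3 cycles. Females and males were each given saline vehicle, or AOM/DSS and killed at 9 or at 15 weeks, giving 6 groups of 5 mice with 1 library a mouse. The only vehicle mice were those of 9 weeks, so at 15 weeks treatment and elapsed time cannot be told apart. Counts per library ran from 9265804 (female vehicle replicate 5) to 30806392. The scrapings differed in content: 6 genes of the distal colon (Hoxb13, Hoxd13, Hoxd12, Hoxa13, Scnn1b, Scnn1g) summed to 28.1 to 941 CPM (counts scaled to the total of each library) between libraries, 12 colonic epithelial genes to 13620 to 27780 CPM, and 8 smooth muscle genes to 5953 CPM in male vehicle replicate 1, above all other libraries. In such bulk RNA, fewer cells of a type and less RNA per cell cannot be told apart.

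Reg3b and Reg3g are released by enterocytes and other epithelial cells onto the gut surface. Reg3g binds the peptidoglycan of Gram-positive bacteria and kills them, and both genes are well known targets of IL-22 and STAT3 signaling during intestinal infection and injury. Reg4 is a marker of deep crypt secretory cells and goblet cells of the colon, and Reg1 and Reg2 are abundant products of the exocrine pancreas.

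On GRCm38, the files place 6 of the members on chromosome 6 in the order Reg3b, Reg3d, Reg3a, Reg2, Reg1 and Reg3g, from 78370885 to 78468872. Reg3d (78375874 to 78378865) and Reg3g (78466269 to 78468872) lie on the minus strand, and the other 4 on the plus strand. The identifiers are ENSMUSG00000071356 for Reg3b, ENSMUSG00000030017 for Reg3g and ENSMUSG00000027876 for Reg4. Reg4 lies alone on chromosome 3, from 98222156 to 98236748 on the plus strand. The longest coding transcript of each has 6 exons in GENCODE M21, except Reg1 with 7. Coding sequences of Reg3b and Reg3g were 75.9% identical over an alignment of 528 bases, those of Reg1 and Reg2 78.7% over 522 bases, and those of Reg3b and Reg4 49.7% over 537 bases. No run of 51 bases, the read length given in the methods, was shared between transcripts of different members, so reads could be told apart between Reg3b and Reg3g.

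Because Reg3b and Reg3g moved together across the libraries and Reg4 did not follow them, the 250 bases before the start site of these genes are shown, from RefSeq on GRCm38.p6. Capitals mark matches to 3 short patterns searched on both strands: TATAAA, TTCNNNGAA (the form of a STAT site, which reads the same on both strands) and CACCTG. The first capitals in Reg3g are a match on the opposite strand. The windows are chr6:78370635-78370884 (plus strand) for Reg3b, chr6:78468875-78469124 (minus strand) for Reg3g and chr3:98221906-98222155 (plus strand) for Reg4.
Reg3b: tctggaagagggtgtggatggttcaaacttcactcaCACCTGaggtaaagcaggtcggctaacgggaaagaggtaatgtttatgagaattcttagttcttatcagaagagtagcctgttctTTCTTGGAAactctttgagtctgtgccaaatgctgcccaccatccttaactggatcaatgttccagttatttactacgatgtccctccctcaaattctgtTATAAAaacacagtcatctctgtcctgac
Reg3g: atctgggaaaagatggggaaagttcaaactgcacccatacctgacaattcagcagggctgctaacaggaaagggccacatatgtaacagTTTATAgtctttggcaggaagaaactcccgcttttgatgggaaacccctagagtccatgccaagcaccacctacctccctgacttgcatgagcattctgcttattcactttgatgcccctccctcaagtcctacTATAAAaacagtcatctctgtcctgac
Reg4: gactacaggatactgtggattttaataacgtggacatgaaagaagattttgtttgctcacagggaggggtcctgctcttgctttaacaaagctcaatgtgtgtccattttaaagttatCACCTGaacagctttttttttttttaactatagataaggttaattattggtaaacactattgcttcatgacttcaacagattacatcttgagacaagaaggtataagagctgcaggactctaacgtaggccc
Reg3b and Reg3g each carried TATAAA shortly before the start, at -29 and -27, and Reg4 did not. Over the 300-base windows that run 50 bases past the start, TATAAA occurred in 4 of the 7 members and in 13.6% of 32851 windows, TTCNNNGAA in 2 (Reg3b and Reg3d) and in 8.30%, and CACCTG in 5 and in 20.2%. The windows of Reg3b and Reg3g were 68.1% identical, against 46.9% for Reg3b and Reg4. They shared an unbroken run of 29 bases, ACAGTCATCTCTGTCCTGACACACCATCC, that began 20 bases before the start site of each. A match of letters is a description of the window, not a bound site.

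Reg3b ranged from 0 to 2059 CPM over the 30 libraries. In vehicle-treated females Reg3b stood at 2.08, 1815, 539, 540 and 155.2 CPM in replicates 1 to 5, and in vehicle-treated males at 0.0356, 62.5, 443, 56.7 and 0 CPM. The last value is a count of 0, which allows up to 0.123 CPM. Libraries close to or at 0 thus stood beside far higher ones within both vehicle-treated groups. At 9 weeks Reg3b was at 232, 857, 98.2, 2059 and 872 CPM in females and at 308, 1358, 206, 1381 and 220 CPM in males. At 15 weeks it was at 1555, 1340, 1148, 1381 and 459 CPM in females, against 176, 289, 57.0, 4.38 and 406 CPM in males. Female and male libraries overlapped for Reg3b in vehicle and at 9 weeks. They did not overlap at 15 weeks, where the lowest female value was 459 CPM and the highest male value 406 CPM. The same lack of overlap was found for 2.23% of all genes tested.

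Reg3g was high and low in much the same libraries as Reg3b. It ran at 0.968, 365, 118, 191 and 32.0 CPM in vehicle-treated females and at 0.107, 15.5, 113, 24.5 and 0.0821 CPM in vehicle-treated males. At 9 weeks the values were 93.2, 302, 45.6, 712 and 242 CPM in females and 116, 657, 95.4, 527 and 99.95 CPM in males. Those at 15 weeks were 395, 376, 323, 336 and 144.5 CPM in females and 70.6, 119, 27.2, 6.36 and 230 CPM in males. The lowest library at 9 weeks was above the median of vehicle-treated libraries, 28.2 CPM, and the groups still overlapped.

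Reg4, unlike Reg3b and Reg3g, was well above 0 in all libraries. It was measured at 658, 78.6, 44.2, 118 and 180 CPM in vehicle-treated females and at 131, 520, 210, 300 and 420 CPM in vehicle-treated males. AOM/DSS females carried 412, 165, 110, 46.7 and 41.0 CPM at 9 weeks and 64.7, 35.2, 95.9, 177.6 and 125.2 CPM at 15 weeks. AOM/DSS males carried 186, 91.5, 126 and 191 CPM in replicates 1, 2, 4 and 5 at 9 weeks, with replicate 3 between replicates 4 and 1, and 49.1, 216, 731, 396 and 131 CPM at 15 weeks. Reg4 was detected with at least 807 counts in every library, and all 6 groups overlapped. The highest Reg4 level in vehicle-treated females was in replicate 1, the library in which Reg3b and Reg3g were lowest.

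**Figure D1:**
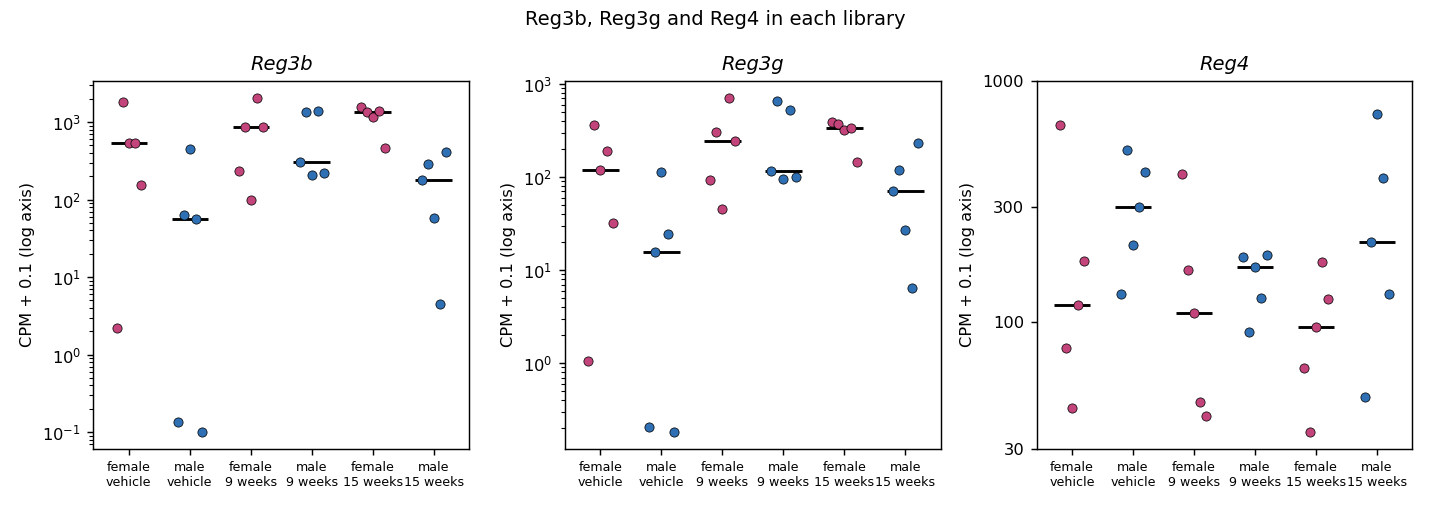
CPM of Reg3b, Reg3g and Reg4 in each of the 30 libraries (points, females pink and males blue, log axis after adding 0.1) by group, with the group median as a bar. Vehicle-treated libraries span 0 to 1815 CPM for Reg3b, and females and males at 15 weeks do not overlap for Reg3b, as for 2.23% of all genes tested.

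By group mean, Reg3b ranked in the order 15-week females (1177 ± 426 CPM, SD, n = 5), 9-week females (824 ± 775), 9-week males (695 ± 618), vehicle-treated females (610 ± 714), 15-week males (187 ± 165) and vehicle-treated males (112 ± 187). Every neighbouring pair in this order differed by less than the larger SD of the pair. Reg3g had the order 15-week females (315 ± 99.6 CPM), 9-week males (299 ± 272), 9-week females (279 ± 264), vehicle-treated females (141 ± 145.5), 15-week males (90.7 ± 89.2) and vehicle-treated males (30.6 ± 47.1), again with no neighbours apart by more than the larger SD. For Reg4 vehicle-treated males came first (316 ± 156.7 CPM), then 15-week males (305 ± 271), vehicle-treated females (216 ± 252), 9-week females (SD 152, with a mean just above the next), 9-week males (152 ± 42.7) and 15-week females (99.7 ± 55.0), and the same held. The biological coefficient of variation, the spread between mice of a group beyond counting error, was 1.34 for Reg3b, 1.17 for Reg3g and 0.688 for Reg4, against a common value of 0.319. Of the tested genes, 99.5% had a lower value than Reg3b, 99.0% than Reg3g and 91.5% than Reg4.

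Within a library, TPM (transcripts scaled by length to a fixed total) compares genes per length. By TPM, Reg3b led the family in 22 of the 30 libraries and Reg4 in 8. Reg4 led in 5 of the 10 vehicle-treated libraries, in 1 of 10 at 9 weeks and in 2 of 10 at 15 weeks. In vehicle-treated males the Reg4 share of the family's TPM was at least 22.0% with a median of 83.3%, and in 15-week females from 1.49% to 13.4% with a median of 4.65%. Reg3b and Reg3g fill the rest of the family in nearly every library, and in 27 libraries with at least 100 counts for the pair the Reg3g share of their counts was 16.7% to 59.2%. The median share was 19.8% in vehicle-treated (n = 7), 28.2% in 9-week (n = 10) and 26.2% in 15-week libraries (n = 10). At 15 weeks the sexes lay apart, with 19.6% to 23.9% in females and 28.6% to 59.2% in males, which was not tested. They overlapped at 9 weeks (21.7% to 31.7% in females, 27.3% to 32.6% in males) and in vehicle (16.7% to 26.2% and 19.8% to 30.2%). The highest, in male 15-week replicate 4, was 59.2% (Wilson 95% interval 51.4% to 66.6%, counting error only). Between libraries TPM was used only in the limma alternatives, which carry its unequal scale. The TPM that went with 1 CPM of Reg4 ran from 0.213 to 0.758, while mt-Nd4l, with 14 to 148 counts, was listed at 39.2% to 58.1% of all TPM.

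**Figure D2:**
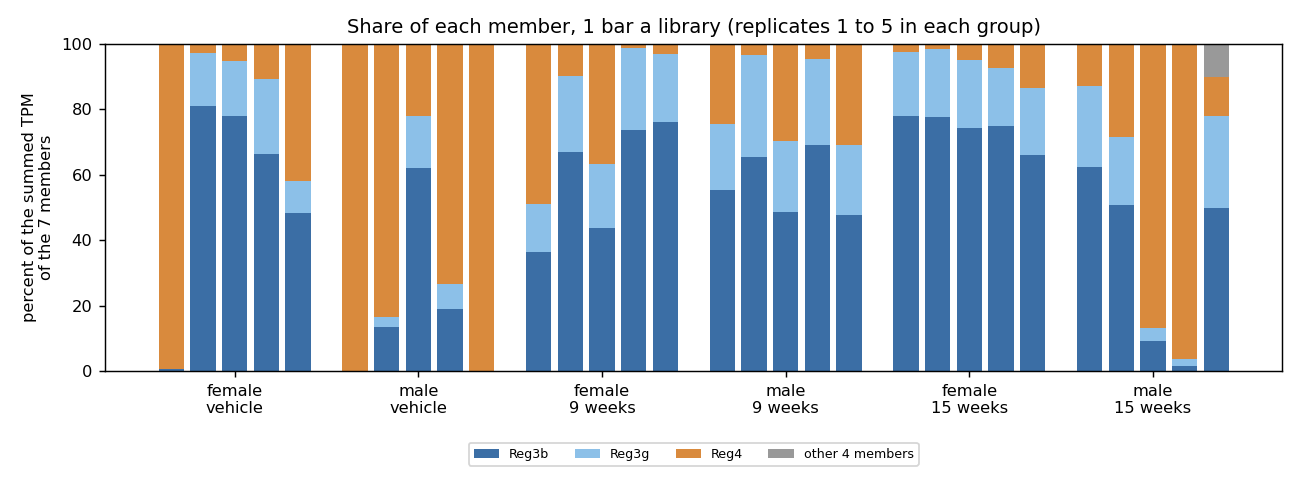
Percent of the summed TPM of the 7 members held by Reg3b, Reg3g, Reg4 and the other 4, as 1 stacked bar a library in replicate order. Reg4 dominates 4 of the 5 male vehicle libraries, and the other 4 members are visible in male 15-week replicate 5 alone.

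Reg1, Reg2, Reg3a and Reg3d were near the limit of detection in nearly every colon. Reg2 had at most 10 counts and Reg3d at most 3 in 29 libraries, against 1386 and 66 in male 15-week replicate 5. Reg1 had at most 24 counts in the same 29 libraries, of which 7 had none, against 721 in that library. It held 81.4% of all Reg1 counts, 95.7% of all Reg2 counts and 86.8% of all Reg3d counts. Pancreatic acinar genes stood apart in the same library: 17 of 19 were highest there. All 19 summed to 2483 CPM there and to at most 1667 CPM elsewhere (male vehicle replicate 1). The 13 with 40 or fewer counts in each other library summed to 1563 CPM, against 0 to 5.10 CPM elsewhere. Their low sums elsewhere follow from how they were picked. They included Ctrb1 (chymotrypsinogen, 10805 counts) and Pnlip (pancreatic lipase, 7350 counts). The part of the pancreatic genes in the Reg1, Reg2 and Reg3d values was not tested.

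Reg3a was the exception among the low members. It had 126 counts in male 15-week replicate 5 and 104 in female 15-week replicate 1, and 6 of the other libraries had none. Its medians were 0.648 CPM in vehicle-treated, 0.229 in 9-week and 1.54 CPM in 15-week females, and 0.146, 0.258 and 0.122 CPM in the matching males.

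**Figure D3:**
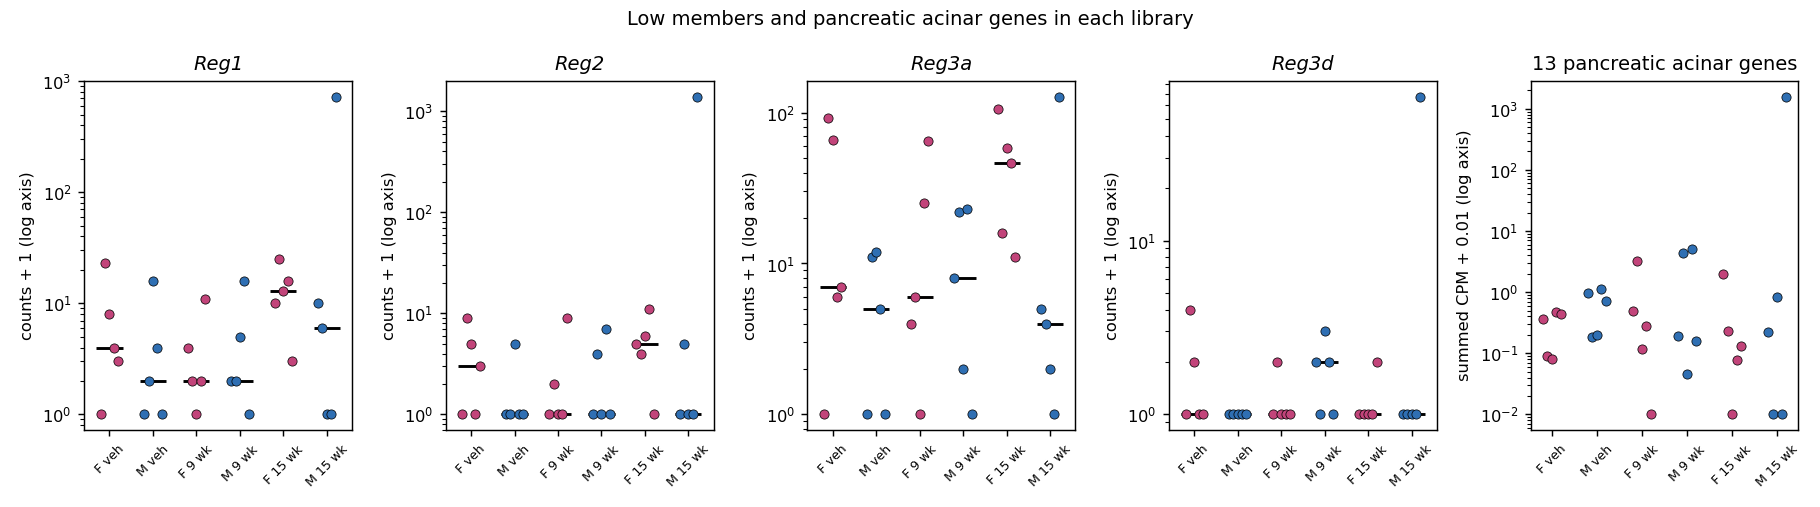
Counts of Reg1, Reg2, Reg3a and Reg3d in each library (log axis after adding 1, bars are group medians, F female, M male) and, at the right, summed CPM of 13 pancreatic acinar genes (log axis after adding 0.01). Male 15-week replicate 5 reaches 721, 1386 and 66 counts for Reg1, Reg2 and Reg3d and 1563 CPM for the pancreatic genes. These 13 were picked for having 40 or fewer counts in each other library.

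The first question was whether AOM/DSS changed the family. Differences were fitted with edgeR's quasi-likelihood test over all 16261 genes and adjusted by Benjamini-Hochberg. A gene was called at an adjusted p under 0.05, a log2 fold change beyond 0.4 and a mean FPKM (fragments per kilobase of transcript, scaled to depth) of at least 1 in a compared group. At 9 weeks against vehicle with the sexes averaged, 0 of the 5 tested members were called, against 8.29% of all genes tested. Reg3g had the largest fitted difference, a log2 fold change of 2.08 ± 0.82 (SE), that is 4.24-fold (95% interval 1.33 to 13.5) (edgeR, adjusted p = 0.081). It was the 1 member with an unadjusted p under 0.05, as 29.0% of all genes had. Reg3b had 1.48 ± 0.91 (adjusted p = 0.292), Reg4 -0.79 ± 0.47 (adjusted p = 0.272), Reg3a 0.18 ± 0.91 (adjusted p = 0.926) and Reg1 -0.55 ± 1.09 (adjusted p = 0.788). Reg3b had 3.11 to 4.07 with limma on FPKM or TPM and 3.17 with the mesenchyme covariate. The Reg3g call depended on the setting: it was made with the mean level of mesenchyme or of distal colon genes as a covariate, by limma on FPKM or TPM, and without male vehicle replicate 3 (log2 fold change 2.90, adjusted p = 0.0185). The covariate genes had their own median log2 fold changes in this comparison, 0.39 for mesenchyme and -1.04 for distal colon.

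In males alone, Reg3g differed by 3.26 ± 1.21 on the log2 scale at 9 weeks (adjusted p = 0.0839) and Reg3b by 2.59 ± 1.33 (adjusted p = 0.227). In females the same differences were 0.90 ± 1.12 (adjusted p = 0.758) and 0.37 ± 1.26 (adjusted p = 0.929). None of the members was called in either sex by edgeR, against 7.31% of all genes in males and 2.90% in females. DESeq2 called Reg3g in males (3.27, adjusted p = 0.0392). At an unadjusted p under 0.05 edgeR gave Reg3g in males, beside 25.4% of genes, and 0 members in females, beside 17.2%. Treated and vehicle-treated libraries overlapped for every member in both sexes, where 10.1% of genes in males and 3.60% in females did not overlap. The difference between the male and female change was itself 2.36 ± 1.59 for Reg3g (adjusted p = 0.753) and 2.23 ± 1.80 for Reg3b (adjusted p = 0.8), so a sex difference in the response was not detectable. Of all 16261 genes, 0 were called for this interaction and 7.41% had an unadjusted p under 0.05, none of them a Reg gene.

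The comparisons at 15 weeks share the vehicle libraries with those at 9 weeks. At 15 weeks against vehicle with the sexes averaged, Reg1 was the 1 member called, against 7.35% of all genes. Its log2 fold change was 2.99 ± 0.99 (adjusted p = 0.0378), and it was 5.14 ± 1.48 in males (adjusted p = 0.022), where 8.92% of genes were called. Both rested on male 15-week replicate 5: without it the values were 0.61 (adjusted p = 0.66) and 0.36 (adjusted p = 0.902). Against 9 weeks Reg1 was again the 1 member called, among 2.32% of all genes, at 3.54 ± 1.03 (adjusted p = 0.0448), and 1.15 without that library (adjusted p = 0.443). The other members were not called: Reg3g had 1.44 ± 0.80 against vehicle (adjusted p = 0.204) and -0.65 ± 0.79 against 9 weeks (adjusted p = 0.632). Reg3b had 0.91 ± 0.90 (adjusted p = 0.49) and -0.57 ± 0.89 (adjusted p = 0.722), and Reg4 -0.49 ± 0.46 (adjusted p = 0.473) and 0.30 ± 0.46 (adjusted p = 0.72). With the distal colon score as a covariate, the value against vehicle was -0.53 for Reg3b, 0.17 for Reg3g and 0.52 for Reg4. The distal colon genes were themselves lower at 15 weeks than in vehicle (median log2 fold change -2.09). Of the 6, 3 were called lower, against 3.89% of all genes, so this covariate was not independent of treatment. Limma on FPKM or TPM gave 2.19 to 2.88 for Reg3b and 2.23 to 2.94 for Reg3g. Reg3a had 1.42 ± 0.92 against vehicle (adjusted p = 0.279) and 1.24 ± 0.90 against 9 weeks (adjusted p = 0.401).

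Within each sex at 15 weeks the members again overlapped between groups. In females 0 members were called against vehicle by edgeR or DESeq2, where 0.0984% of genes were, 10.9% of genes and 0 members had an unadjusted p under 0.05, and 1.51% of genes did not overlap. In males 8.81% of genes did not overlap between 15 weeks and vehicle. Between 15 and 9 weeks 0% of genes were called in either sex. An unadjusted p under 0.05 was found for 12.6% of genes and 0 members in females and for 13.4% of genes and Reg1 in males, and 1.01% and 4.91% of genes did not overlap. For Reg4, the change from 9 to 15 weeks was 1.13 ± 0.66 in males (adjusted p = 0.479) and -0.54 ± 0.66 in females (adjusted p = 0.718), and the difference between them was 1.67 ± 0.93 (adjusted p = 1). For that interaction 0 genes were called and 2.23% had an unadjusted p under 0.05. For the interaction at 15 weeks against vehicle 0 genes were called, and 7.66% had an unadjusted p under 0.05, with Reg1 as the 1 member.

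The second question was whether the sexes differed. No member was called between males and females in any condition by edgeR or DESeq2, against 0.178% of genes in vehicle, 0.0492% at 9 weeks and 0.184% at 15 weeks with edgeR. At an unadjusted p under 0.05 stood Reg3a in vehicle (beside 18.7% of genes), 0 members at 9 weeks (beside 3.87%) and Reg1 and Reg4 at 15 weeks (beside 12.4%). At 15 weeks Reg3b was lower in males by a log2 fold change of -2.72 ± 1.34 (adjusted p = 0.41), and its libraries did not overlap, as was true of 2.23% of all genes tested. Reg3g had -1.85 ± 1.14 (adjusted p = 0.551) and Reg4 1.64 ± 0.67 (adjusted p = 0.301). The distal colon genes had a median sum of 248 CPM (79.7 to 343) in 15-week males and 57.2 CPM (31.6 to 229) in 15-week females. These ranges overlapped, and the part of these genes in the sex difference was not tested beyond the covariate fits. With the distal colon covariate the values were -1.71 for Reg3b, -1.06 for Reg3g and 0.62 for Reg4, with the mesenchyme covariate -1.21 for Reg3b and -0.69 for Reg3g, and without male 15-week replicate 3 Reg4 had 0.98. In vehicle-treated mice Reg3b had -2.51 ± 1.33 (adjusted p = 0.315) and Reg3g -2.28 ± 1.16 (adjusted p = 0.292). The distal colon median was 388 CPM (278 to 941) in these males and 175 CPM (61.45 to 549) in these females, again with overlap. For Reg3b and Reg3g the values were -0.65 and -0.88 with the distal colon covariate and -0.51 and -0.80 with the mesenchyme covariate. Leaving out male vehicle replicate 3 gave -4.45 for Reg3b and -3.92 for Reg3g, and leaving out female vehicle replicate 2 gave -1.54 and -1.57. Reg3a had -2.85 ± 1.39 (adjusted p = 0.268), and no member was free of overlap in vehicle or at 9 weeks, where 2.0% and 1.22% of genes were. At 9 weeks the sexes were close for the pair, with -0.28 ± 1.26 for Reg3b and 0.07 ± 1.11 for Reg3g (adjusted p = 0.999 for each). The intervals were wide: for Reg3g at 9 weeks they allow from -2.19 to 2.34.

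**Figure D4:**
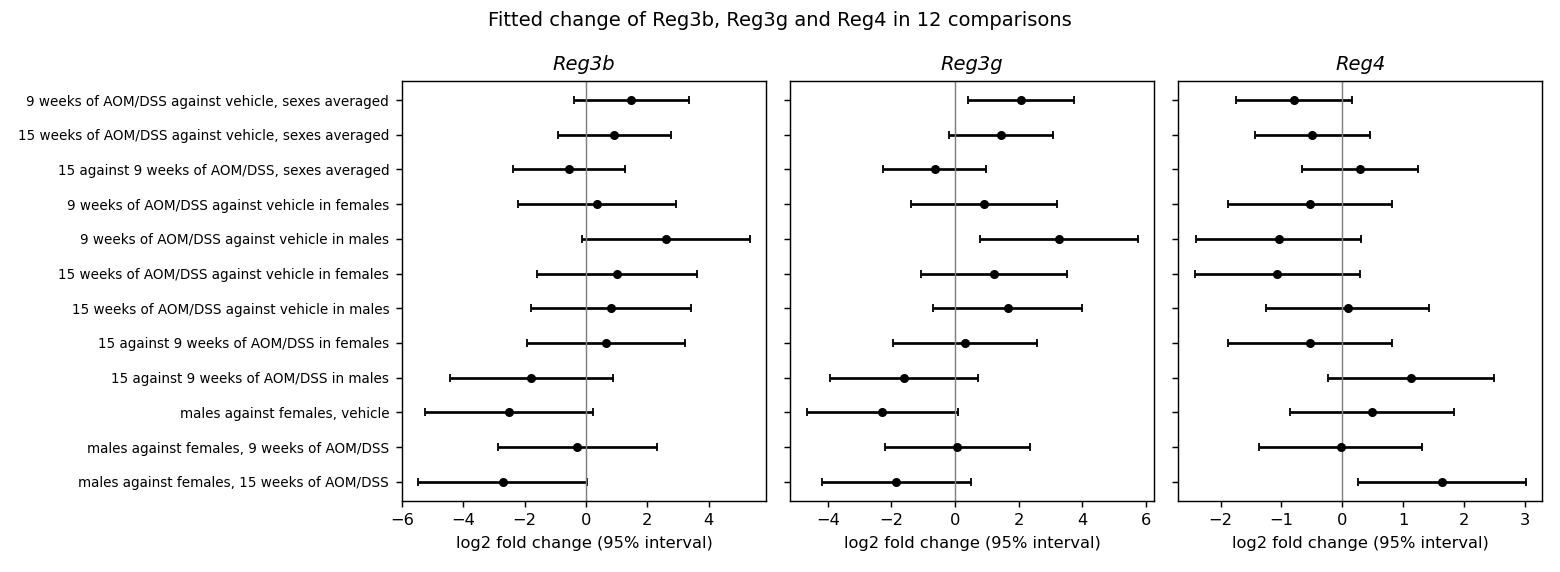
Fitted log2 fold change (points) with its 95% interval (bars) for Reg3b, Reg3g and Reg4 in 12 comparisons. The Reg3g intervals at 9 weeks against vehicle in males (0.78 to 5.74) and with sexes averaged (0.41 to 3.75) lie above 0 before adjustment, and those of Reg3b include 0 in each comparison.

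Across the libraries, with group means removed, Reg3b and Reg3g had Pearson's r = 0.991 and Spearman's rho = 0.985 (n = 30, permutation p = 1e-05 for each, the smallest that 100000 within-group permutations can give, adjusted p = 8.67e-05 over 26 relations). Within single groups r was 0.982 to 0.997, and it was 0.988 without the 2 libraries farthest out. Reg3a followed both less closely, with r = 0.692 for Reg3b and 0.706 for Reg3g (rho = 0.769 and 0.751, permutation p = 1e-05 and adjusted p = 8.67e-05 for each). Reg4 and Reg3b had values of the opposite sign: r was -0.385 (permutation p = 0.055, adjusted p = 0.0894) and rho -0.496 (p = 0.0117, adjusted p = 0.0254). Pearson's r was -0.227 without the 2 farthest libraries, so the linear relation rests on them.

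Genes of the distal colon moved with the Reg genes, and their part in the Reg values was not tested beyond the covariate fits. The mean log2 CPM of the 6 distal colon genes had r = -0.634 with Reg3b (rho = -0.624, n = 30, permutation p = 0.00037 and 0.00082, adjusted p = 0.00192 and 0.00426), negative in all 6 groups (-0.869 to -0.103), and -0.604 without the 2 farthest libraries. Reg3g had r = -0.614 (rho = -0.562, permutation p = 0.0015 and 0.00393, adjusted p = 0.00487 and 0.0114), and Reg3a -0.7 (rho = -0.655, permutation p = 0.00019 and 0.00055, adjusted p = 0.00123 and 0.00357). Reg4 had r = 0.528 (rho = 0.524, permutation p = 0.0114 and 0.0103, adjusted p = 0.0296 and 0.0244), with 2 groups negative. With 11 goblet and deep crypt secretory genes Reg4 had r = 0.154 (rho = 0.084, permutation p = 0.364 and 0.674, adjusted p = 0.473 and 0.719). Both values of a pair come from the same library. The distal list's median sum was 388 CPM in vehicle-treated males and 57.2 CPM in 15-week females, the groups with the lowest and highest mean Reg3b. The groups between them did not keep this order. 9-week males had a distal median of 265 CPM and a mean Reg3b of 695 CPM, against 248 and 187 CPM in 15-week males. Reg3b was also higher with a higher mean of 12 colonic epithelial genes (r = 0.722, rho = 0.683, permutation p = 0.0013 and 0.00108, adjusted p = 0.00483 and 0.00442), and with the neutrophil list r was -0.062 (rho = -0.135, permutation p = 0.656 and 0.452, adjusted p = 0.775 and 0.56).

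**Figure D5:**
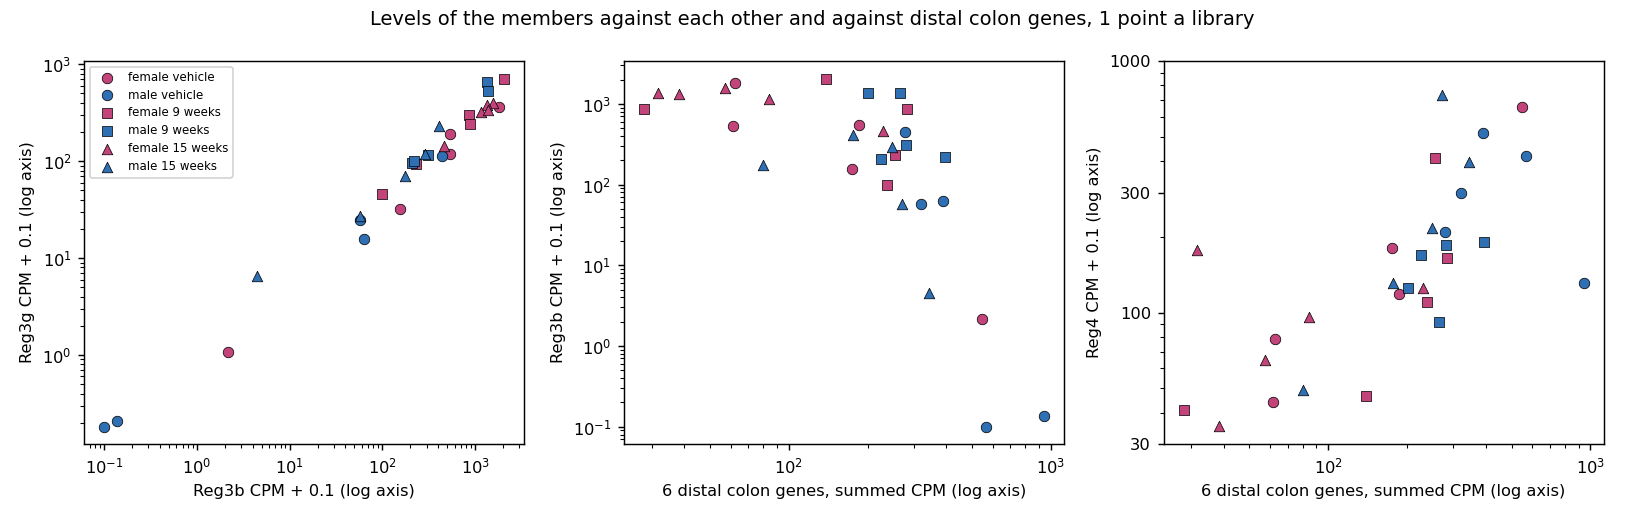
CPM of Reg3b against Reg3g, and summed CPM of 6 distal colon genes against Reg3b and Reg4, on log axes (0.1 added to the members' CPM), with 1 point a library (pink female, blue male, circles vehicle, squares 9 weeks, triangles 15 weeks). Reg3b and Reg3g lie along 1 line, and the libraries with the lowest Reg3b are among those with the highest distal sums.

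The non-member genes most like Reg3b over the 30 libraries by Pearson's r of log2 CPM were Sptssb (0.922), 1700024P16Rik (0.92) and Car12 (0.906). For Reg3g they were Ceacam12 (0.915), Phf11b (0.909) and Plet1 (0.907), and for Reg4 Fmo1 (0.818), Mptx1 (0.808) and Gm15401 (0.779). With group means removed the leading genes were Sptssb (0.91) for Reg3b, Ceacam12 (0.887) for Reg3g and Fmo1 (0.829) for Reg4. For Reg1 they were Mrpl46 (0.765) and, with group means removed, Krt7 (0.843), and for Reg3a Casp6 (0.846) and Arl6ip1 (0.89). These values describe shared libraries and depth as well as the genes, and were not tested.

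Of the IL-22 and STAT3 pathway, 20 of 22 genes were tested. At 9 weeks with the sexes averaged 3 rose, against 5.51% of all genes, and the list's median log2 fold change was 0.11 against -0.02 over all genes. The 3 that rose were Socs3, the feedback inhibitor of STAT3 (2.14 ± 0.25, adjusted p = 8.03e-07, mean CPM 9.25 in vehicle-treated and 42.0 in 9-week libraries), Osmr, the oncostatin M receptor (3.03 ± 0.55, adjusted p = 0.000277), and Stat3 itself (0.41 ± 0.09, adjusted p = 0.0026). At 15 weeks 1 of the 20 rose, Socs3 (1.07 ± 0.24, adjusted p = 0.00532), where 3.46% of all genes did. The list's median log2 fold change was then -0.074 against -0.025 over all genes. Socs3 rose in both sexes at 9 weeks, in females by 1.99 ± 0.35 and in males by 2.28 ± 0.35 (edgeR, adjusted p = 0.00116 and 0.000111). The cytokines themselves were at the edge of detection: Il22 had 0 to 7 counts in vehicle-treated, 0 to 14 in 9-week and 0 to 5 in 15-week libraries. Il17a had 0 counts in all 10 vehicle-treated libraries and up to 59 at 9 weeks, Il6 up to 1 and up to 62, and Il23a 0 to 19 and 5 to 29.

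A further list held other antimicrobial defense genes. Most code for secreted proteins, and it also held Nos2, an intracellular enzyme, and Duox2 and Duoxa2, which are membrane proteins. Of 27 tested in a list of 28, 14 rose and 1 fell at 9 weeks, where 5.51% and 2.78% of all genes did, and 11 rose and 1 fell at 15 weeks, where 3.46% and 3.89% of all genes did. The list's median log2 fold change was 1.21 at 9 weeks and 1.05 at 15 weeks. The 6 named were Nos2, the inducible nitric oxide synthase (log2 fold change 4.99 ± 0.42 at 9 weeks), Wfdc18, a whey acidic protein family member (2.82 ± 0.33), Duoxa2, the maturation factor of the epithelial peroxide-forming oxidase Duox2 (2.07 ± 0.24), the phospholipase gene Pla2g2a (2.74 ± 0.44, RNA only), and S100a8 and S100a9, the subunits of neutrophil calprotectin. Duoxa2 ran from 11.2 to 63.9 CPM in vehicle-treated and from 99.2 to 225 CPM in 9-week libraries. These ranges only describe a gene that was named for its calls. S100a8 had 0 counts in all 5 vehicle-treated females and a median of 5.38 CPM at 9 weeks (n = 10), S100a9 went from a median of 0 to 9.43 CPM, and both belong to the neutrophil list, which summed to 0 to 4.85 CPM in vehicle-treated and 0.834 to 387 CPM in 9-week libraries. In females at 15 weeks 0 of the 27 were called, where only 0.0984% of all genes were, so this count does not set the list apart.

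The candidate Reg receptor gene Extl3 had 42.6 ± 3.08 CPM in vehicle-treated (SD, n = 10), 44.2 ± 5.33 in 9-week and 39.3 ± 5.96 CPM in 15-week libraries. Egfr codes for a growth factor receptor placed downstream of Reg proteins in epithelial cells. It was called higher at 9 weeks in males (0.52 ± 0.14, edgeR, adjusted p = 0.0174), where 7.31% of all genes were called. In females it had 0.27 ± 0.14 (adjusted p = 0.331). With the sexes averaged it had 0.39 ± 0.10 (adjusted p = 0.00595), under the size needed for a call.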

How the data were processed

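Libraries were assigned to groups by the submitters' labels, 5 per group and 30 in all. The authors made poly(A)-selected stranded libraries, demultiplexed reads with bcl2fastq 2.20.0.422, trimmed them with Trim Galore, aligned them to GRCm38 with STAR, and counted them per gene with featureCounts. The counts are deposited raw. The deposited FPKM and TPM were estimated by the authors with StringTie. Repeated gene lines in an FPKM or TPM file (11 to 20 a library) were summed here. Duplicate reads had not been removed. The Wilson interval and the limit of 3 counts for a count of 0 cover counting error only, while the edgeR intervals include the spread between mice.

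Counts were tested with edgeR 4.0.16 in R 4.3.3, with filterByExpr, TMM scaling (factors 0.832 to 1.10) and 1 coefficient per group, in 15 comparisons over all libraries. Alternatives used DESeq2 1.42.0, limma 3.58.1, other scaling, filters, covariates and left-out libraries. The test was checked on simulated counts. Log2 CPM used a prior count of 2. Members and lists were chosen with earlier results of these data known. The 7 members were named, with pathway genes called in most comparisons (up to 6 a list) and the 3 genes most like each tested member. Il22, Il17a, Il23a and Il6 were named whatever their counts. One result of the pathway list is not reported here. Each mouse is 1 sample, so p-values measure the spread between mice. Promoter windows are from RefSeq and transcripts from GENCODE M21.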

Additional observations from a re-analysis of the deposited data

Results flagged for a closer look

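In groups of 5 libraries, 1 library was set apart from the others by a gap over range ratio above 0.71 in 4 of 37 member and group pairs on log2 CPM. For normally distributed values such a ratio occurs by chance in about 1 of 20. That rate does not apply to these 4, all of Reg2 or Reg3d in groups where most libraries had 0 counts. Where all the other libraries had 0 counts the ratio is 1.0 whatever the count. In male 15-week replicate 5 the ratio was 0.827 for Reg2 (46.5 CPM, 1386 counts) and 1.0 for Reg3d (2.22 CPM, 66 counts), where the group medians were 0 CPM. The pancreatic acinar genes were high in the same library. In male vehicle replicate 3 the ratio was 1.0 for Reg2, which rests on 4 counts, and in female 9-week replicate 5 it was 0.769 for Reg2, which rests on 8 counts.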

How the results depend on the processing

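Directions held in 223 of 227 alternative values of the members named and in 317 of 320 values with 1 library left out. The number of members called at 9 weeks with the sexes averaged was 0, and 2 (Reg3b and Reg3g) with limma on log2(TPM + 1) or log2(TPM + 0.1), 1 (Reg3g) with limma on log2(FPKM + 1), chosen after seeing the data, and 1 (Reg3g) with the mesenchyme or the distal colon covariate. In males at 9 weeks it was 0, and 1 (Reg3g) with DESeq2, limma on FPKM or the mesenchyme covariate, and 2 with limma on TPM. At 15 weeks against vehicle, with the sexes averaged and in males, 1 (Reg1) became 0 with DESeq2 (Reg1 had no adjusted p), the compared libraries only, the replicate block, limma on TPM or FPKM and the distal colon covariate, and 2 (Reg1 and Reg2) with no low-count filter. At 15 against 9 weeks 1 became 0 with all of these, with no filter and with the mesenchyme covariate. With 1 library left out each of these counts ran from 0 to 1. Reg1 at 15 weeks against vehicle lost its call without female vehicle replicate 1, 3, 4 or 5, male vehicle replicate 1, 2 or 5, female 15-week replicate 2 or male 15-week replicate 5, in males alone without male vehicle replicate 1 or 5 or male 15-week replicate 5, and against 9 weeks kept it only without female 9-week replicate 5, male 9-week replicate 4, female 15-week replicate 5 or male 15-week replicate 2, 3 or 4.

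At 15 weeks against vehicle the distal colon covariate gave -0.53 for Reg3b and 0.52 for Reg4, and limma on TPM gave -0.41 and -0.43 for Reg4 against 9 weeks. With 1 library left out Reg4 ran from -0.82 to 0.0156 (without female vehicle replicate 1) against vehicle and from -0.0157 (without male 15-week replicate 3) to 0.68 against 9 weeks, and Reg3b in females at 9 weeks from -0.28 (without female 9-week replicate 4) to 1.34. Their cause was not tested. Replicate numbers did not pair the mice (median correlation -0.026 over 75 same-numbered pairs), and the replicate block changed no other count. Depth limits Reg2 and Reg3d, with at most 10 counts outside 1 library.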
